A study of Mus musculus with 8 samples.

Results

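Opposite-strand transcripts, the RNAs whose symbol is that of another gene followed by os, were examined in whole retinas together with the gene on the other strand that lends each its name (the sense partner). The retinas came from germ-free (GF) male C57B1/6 mice, raised without any microbiota. At 7 weeks of age the mice went on a high-fat diet with 23% saturated fat (GF-HFD, 4 mice, numbers 13, 15, 16 and 19) or stayed on a normal diet (GF-ND, 4 mice, numbers 9, 10, 11 and 12), and after 8 weeks, at 15 weeks of age, 1 retina per mouse was sequenced. A member was any symbol ending in os, or in os and 1 digit, whose prefix is itself a symbol in the count tables and which had 40 or more counts summed over the 8 libraries. Of 55213 symbols, 299 had such a name and partner. The threshold left 145 members with 136 different partners, 153 symbols under 40 counts (44 of them at 0 in all libraries) and Cdr1os, which was set aside. Since members were chosen by their summed counts, their presence in the retina is a description and not a result. Slmapos2 (45 counts), Rap1gapos (44) and Tspan32os (42) lay just inside the threshold, and Dhx58os (39), Bach2os (36) and Arf4os (35) just outside it.

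Many mammalian genes are accompanied by a transcript read from the other strand. Some start beside the partner's own start and run away from it, sharing 1 promoter, and others lie within the partner's introns or run into its tail. Such transcripts are mostly noncoding and many stay in the nucleus. A few are known to act on the partner's locus, while for most no function is known. Several developmental transcription factors of the eye, among them Six3, Otx2, Vax2 and Pax6, have a named transcript of this kind.

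All 143 pairs that could be placed on GRCm38 lay on opposite strands of 1 chromosome, as their names say. Tmem147os, a symbol that stands for several loci, and Rbfaos were not placed. In 48 pairs one gene lay within the other, in 43 the heads overlapped, in 29 the genes stood head to head without overlap, in 17 the tails overlapped and in 6 the genes faced tail to tail. The starts lay within 1000 bases of each other in 49 pairs. The annotation listed 116 members as antisense, 8 as lincRNA and 8 as protein coding (among them Crxos, Slc7a6os, Brd3os, Ccpg1os and Cdiptos). Exons of 83 members shared bases with exons of the partner.

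The exon overlap decided what could be counted. Of 156 genes covered by at least 99% by opposite-strand exons of a gene with over 1000 counts, 154 had 0 counts, and so did 114 of 116 genes covered in the same way by exons of their own strand. Reads in shared exons were thus left out on both strands, so a member's count came only from its own unshared exon bases. By GENCODE vM21 these were a median of 1515 bases per member (214 to 10599). The library kit named in the study does not record strand, and reads of the partner's unspliced RNA that fall in those bases cannot be told apart from the member's own. The members were therefore also grouped by where their own exon bases lay, a grouping chosen after the data had been seen. In 56 members over 90% of these bases lay in introns of genes on the other strand ("inside"), in 58 under 10% did ("outside"), and 29 were between these limits ("mixed").

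The start regions showed the same range of layouts. RefSeq (GRCm38.p6) gave a window of 250 bases before to 50 bases after the start for 95 members. The median window held 11 CG dinucleotides, against 7 over all 27025 promoters. Windows of the outside members held a median of 19, those of the mixed members 15.5 and those of the inside members 5, and 19 windows that shared bases with the partner's own window held a median of 30. TAATCC or its reverse complement GGATTA, letters that the photoreceptor factor Crx is known to bind, occurred in 7 of the 95 windows (7.37%) and in 7.16% of all promoters. Printed here are 5 windows, with CG dinucleotides in capitals. Cep83os stands for a start region shared with the partner, Vax2os for the most abundant member beside an eye transcription factor, Dbhos for the member with the lowest p in the diet comparison, and Slain1os and Grin1os for members inside a partner's introns.
Cep83os: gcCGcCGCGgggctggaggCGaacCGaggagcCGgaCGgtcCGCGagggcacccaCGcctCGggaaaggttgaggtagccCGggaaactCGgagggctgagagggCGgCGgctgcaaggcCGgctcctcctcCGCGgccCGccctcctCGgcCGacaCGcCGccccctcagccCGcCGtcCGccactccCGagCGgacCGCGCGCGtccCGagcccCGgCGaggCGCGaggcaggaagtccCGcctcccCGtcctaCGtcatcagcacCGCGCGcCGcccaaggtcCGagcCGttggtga
Vax2os: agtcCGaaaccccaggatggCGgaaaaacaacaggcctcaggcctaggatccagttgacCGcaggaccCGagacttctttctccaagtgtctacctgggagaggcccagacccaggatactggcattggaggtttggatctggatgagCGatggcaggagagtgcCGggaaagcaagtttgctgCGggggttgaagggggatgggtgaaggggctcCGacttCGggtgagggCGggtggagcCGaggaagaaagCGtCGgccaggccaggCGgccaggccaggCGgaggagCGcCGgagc
Dbhos: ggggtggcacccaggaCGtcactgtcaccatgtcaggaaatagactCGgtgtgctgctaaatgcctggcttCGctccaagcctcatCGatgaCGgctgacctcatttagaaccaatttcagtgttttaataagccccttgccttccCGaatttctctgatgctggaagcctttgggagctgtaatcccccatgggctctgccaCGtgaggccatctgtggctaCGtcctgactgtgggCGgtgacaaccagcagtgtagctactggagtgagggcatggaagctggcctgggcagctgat
Slain1os: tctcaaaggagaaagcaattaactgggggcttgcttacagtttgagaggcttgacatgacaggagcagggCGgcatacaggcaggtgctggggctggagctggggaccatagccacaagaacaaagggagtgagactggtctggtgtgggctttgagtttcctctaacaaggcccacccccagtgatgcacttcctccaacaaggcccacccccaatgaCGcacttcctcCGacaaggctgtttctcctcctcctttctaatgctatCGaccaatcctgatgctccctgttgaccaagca
Grin1os: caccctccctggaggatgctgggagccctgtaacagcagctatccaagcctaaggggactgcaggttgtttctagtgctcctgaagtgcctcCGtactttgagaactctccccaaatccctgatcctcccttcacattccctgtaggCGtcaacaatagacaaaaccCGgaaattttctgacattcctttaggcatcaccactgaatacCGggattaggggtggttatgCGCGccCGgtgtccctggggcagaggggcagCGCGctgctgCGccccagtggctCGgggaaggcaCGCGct
These windows lie at chr10:94688564-94688863 (minus strand), chr6:83712152-83712451 (minus), chr2:27162654-27162953 (minus), chr14:103699383-103699682 (minus) and chr2:25291008-25291307 (plus), in the order printed. The Cep83os window, with 46 CG dinucleotides, shared 276 of its 300 bases with that of Cep83. The Vax2os window held 17, the Dbhos window 9, the Slain1os window 4 and the Grin1os window 13.

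Depth and makeup of the libraries bear on everything below. The libraries held 41769598 to 44357518 counts in GF-HFD mice and 39258006 to 44025087 in GF-ND mice. Markers of rods took 5.84% to 7.19% of counts in GF-HFD retinas and 3.31% to 6.04% in GF-ND retinas, with no marker at 0. Lens markers, all 10 of them detected in every library, took 0.0198% to 1.06% in GF-HFD retinas (highest in mouse 19) and 0.0160% to 5.66% in GF-ND retinas, where mouse 11 had the 5.66% and also the 3.31% of rods. GF-ND mouse 11 had the lowest level of all 8 libraries for 39 members and the highest for 13. In whole tissue, fewer cells of a type and less RNA per cell cannot be told apart. Red blood cell markers took 0.00163% to 0.00360% in GF-HFD retinas and 0.000668% to 0.00132% in GF-ND retinas, with no overlap. Fibroblast markers, 1 of 7 at 0 in some library, took 0.000536% to 0.0262% in GF-HFD retinas and 0.000490% to 0.0145% in GF-ND retinas, and with those of the ciliary body and iris they were highest in GF-HFD mice 16 and 19. The part of these cells in the members' values was not tested. Calls of named genes that changed without GF-ND mouse 11 are given below.

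The members were mostly rare beside their partners. The median member had 306 counts over the 8 libraries, and 33 of 145 had 1000 or more. In 124 pairs the member had fewer counts than its partner in every library, in 10 it had more in every library, and the median of log2 member over partner counts was −4.99. Per kilobase of own exon bases, which allows a comparison between genes, the median over 142 pairs was −2.82 on the log2 scale, and 20 members lay above their partners.

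**Figure D1:**
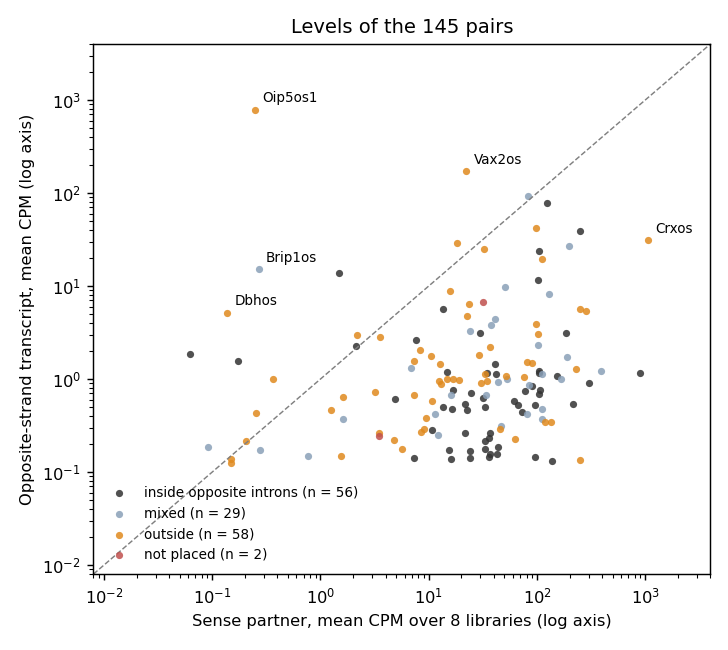
Mean level of each opposite-strand transcript (vertical, CPM, log axis) against that of its sense partner (horizontal, log axis) over the 8 libraries, coloured by the position of its own exon bases, with a dashed line of equal levels. Most of the 145 pairs lie below the line, and Oip5os1, Vax2os, Brip1os and Dbhos lie above it.

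Oip5os1, also known as Cyrano, a conserved noncoding RNA that binds the microRNA miR-7, was by far the most abundant member. It had 34368, 36948, 34657 and 31685 counts in GF-HFD mice 13, 15, 16 and 19, against 32409, 29664, 28483 and 35858 counts in GF-ND mice 9, 10, 11 and 12 (the mouse order used throughout). In CPM, counts scaled to the size of the library, the level averaged 810 ± 53.7 in GF-HFD retinas, against 762 ± 76.4 in GF-ND retinas (mean ± SD of 4 mice per diet, as in all such values), and the diets overlapped. Its partner Oip5, which helps to build the centromere in dividing cells, had 4 to 13 counts in GF-HFD retinas, against 7 to 21 in GF-ND retinas. The members together took 0.150% to 0.160% of counts in GF-HFD retinas with it and 0.0686% to 0.0779% without it, and 0.131% to 0.179% with it and 0.0658% to 0.1002% without it in GF-ND retinas.

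The other members that outnumbered their partners in every library fell into pairs with few counts of the partner and pairs with both genes well counted. Brip1os had 568, 718, 678 and 779 counts in GF-HFD mice, against 625, 526, 759 and 479 in GF-ND mice. Brip1, a DNA repair helicase of dividing cells, had at most 22 counts in any GF-HFD retina and 16 in any GF-ND retina. Ccpg1os, listed as protein coding, had 522 to 601 counts in GF-HFD retinas, against 414 to 700 in GF-ND retinas, beside 48 to 79 and 57 to 76 counts for Ccpg1, a receptor for selective autophagy of the endoplasmic reticulum. Ccdc142os had 100, 76, 98 and 82 counts in GF-HFD mice, against 88, 74, 46 and 68 in GF-ND mice, beside at most 4 counts of Ccdc142 in any GF-HFD retina and 5 in any GF-ND retina. Tomm6os had 62, 51, 60 and 55 counts in GF-HFD mice, against 62, 91, 58 and 84 in GF-ND mice, and Tomm6, a part of the protein import pore of mitochondria with only 179 own exon bases, had 7 to 15 against 0 to 8. Per kilobase of own exon bases, Tomm6os stood at 1.09 CPM and Tomm6 at 0.958 CPM over the 8 libraries. For Ccdc142os and Ccdc142, the latter with 873 own exon bases, these values were 4.02 and 0.0719 CPM. Foxd2os had 31, 23, 35 and 45 counts in GF-HFD mice, against 27, 44, 111 and 22 in GF-ND mice, and the forkhead factor gene Foxd2 had 24, 8, 20 and 14 against 4, 10, 38 and 4. Both were highest in GF-ND mouse 11. The diets overlapped for all these members.

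Cep83os starts 78 bases from Cep83, a gene for a protein of the centriole's distal appendages, and runs the other way. The member had 1108, 1301, 1304 and 1273 counts in GF-HFD mice, against 1260, 1021, 1132 and 1259 in GF-ND mice. Cep83 had 779, 667, 737 and 655 counts in GF-HFD mice, against 769, 783, 871 and 854 in GF-ND mice. From their shared start region the partner was thus fitted lower in GF-HFD (log2 fold change −0.24 ± 0.10 SE, unadjusted edgeR p = 0.0349, exact permutation p = 0.0571), while the member was not (0.06 ± 0.10), and the log2 ratio of member to partner was 0.30 higher in GF-HFD with overlapping values (exact two-sided permutation p = 0.0857). Without GF-ND mouse 11, and without mice 15, 16, 19 or 12, the partner's p was 0.05 or above.

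The next most abundant members differed in how widely they spread among GF-ND mice. Uckl1os, whose own exon bases lie in introns of the uridine kinase gene Uckl1 and the neighbouring Zfp512b, had 1544, 1699, 1570 and 1429 counts in GF-HFD mice, against 3113, 1496, 878 and 1517 in GF-ND mice. Ube4bos1, inside the ubiquitin ligase gene Ube4b, had 1005, 890, 898 and 941 counts in GF-HFD mice, against 1501, 1166, 359 and 1168 in GF-ND mice. For both, the lowest of all 8 values was that of GF-ND mouse 11, and the GF-HFD values lay within the GF-ND range. Rab10os, which runs into the tail of the vesicle transport gene Rab10, had 1525, 1560, 2113 and 1598 counts in GF-HFD mice, against 2015, 2192, 1384 and 1708 in GF-ND mice. Slc7a6os and Brd3os, protein-coding genes that face the amino acid transporter gene Slc7a6 and the chromatin reader gene Brd3 tail to tail, varied far less. Slc7a6os had 880 to 1156 counts in GF-HFD retinas, against 918 to 1225 in GF-ND retinas, and Brd3os had 758 to 930 against 670 to 888.

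Over all members, the levels ran lower in GF-HFD than in GF-ND retinas, while those of the partners did not. The fitted fold change (edgeR's quasi-likelihood test on the counts of all genes, GF-HFD over GF-ND) was below 0 for 100 of 145 members and above 0 for 45, with a median of −0.19 on the log2 scale, against −0.03 over all 26900 genes tested. Of the 136 partners 64 lay below 0 and 72 above, with a median of 0.02. At an unadjusted p under 0.05, 12 members (8.28%) were lower in GF-HFD, against 4.53% of all genes, and 0 were higher, against 2.85%. Among partners 5 (3.68%) were lower and 3 (2.21%) higher by the same rule, below the shares of all genes. With Benjamini-Hochberg adjustment over all genes edgeR called 0 members and 0 partners (0.00% of all genes), the smallest adjusted p being 0.649. DESeq2 called 46 genes and 1 member, Dbhos, and limma-voom called 0 genes. At the study's own thresholds (p under 0.01 and a log2 fold change beyond 1), 3 members were lower (Dbhos, Slain1os and Tmcc3os), against 0.372% of all genes, and 0 were higher, against 0.0855%. The log2 CPM values of the diets did not overlap for 4 members, Zfhx2os, Slain1os, Tmcc3os and Fcnaos, all lower, against 2.54% of all genes lower and 2.29% higher.

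The number of calls depended on GF-ND mouse 11. Without it 16 members were lower and 0 higher at an unadjusted p under 0.01, against 5.32% of all genes lower and 3.74% higher, and the members' median was −0.30. After adjustment over all genes, 5 members passed in this fit, all lower in GF-HFD (Dbhos, Srrm4os, Pitpnm2os2, Crxos and Mypopos), against 1.37% of all genes lower and 0.232% higher. In the same fit 3 partners passed, also lower (Zfhx2, Rbm3 and N4bp2). By the same unadjusted p, 4 partners were higher and 9 lower. Of the members described here, Ube4bos1 (−0.49 without that mouse, −0.21 with it), Otx2os1 (−0.27 and −0.14), Rab10os (−0.26 and −0.14), Tomm6os (−0.51 and −0.41), Tbx3os1 (−0.96 and −0.82) and Tmem147os (−0.33 and −0.30) came below an unadjusted p of 0.05 without it on the lower side, and Brip1os (0.30 and 0.17) on the higher. Among the partners Six3 (0.43 and 0.08), Vax2 (0.61 and 0.40), Foxd2 (1.404 and 0.20), Rab10 (0.30 and 0.16), Tbx3 (0.31 and 0.14), Slain1 (0.31 and 0.09), Tmcc3 (0.21 and −0.01) and Cdipt (0.18 and 0.15) did so on the higher side and Uckl1 (−0.33 and −0.12) and Srrm4 (−0.31 and −0.25) on the lower. Of 2 pairs named below for their correlation, Tnfsf13os (−0.60 and −0.40), Tnfsf13 (−0.62 and −0.36) and Chn1os3 (−1.02 and −0.76) also did so on the lower side. Chn1 (0.17 and 0.08) did so on the higher. Cep83 and Hk1 no longer reached that p.

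**Figure D2:**
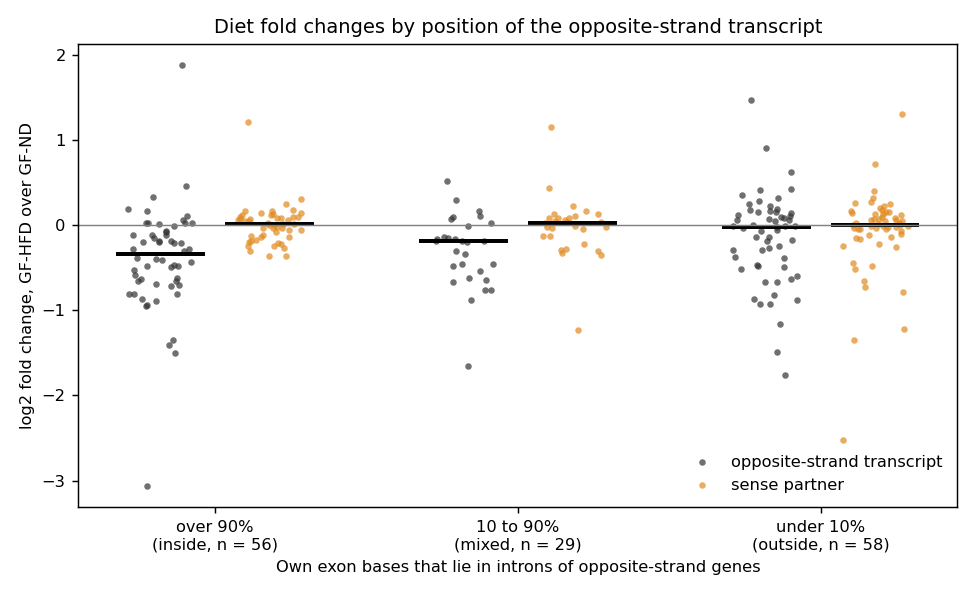
Log2 fold change (GF-HFD over GF-ND) of each opposite-strand transcript and of the sense partners, by the share of the transcript's own exon bases in introns of opposite-strand genes, with bars at the medians. The 56 inside transcripts have a median of −0.35, the 29 mixed ones −0.19 and the 58 outside ones −0.03, and the partners lie around 0.

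The fitted values were also set out by where a member's own exon bases lay. Of the 56 inside members 44 were fitted lower, with a median of −0.35, and 7 (12.5%) were lower at an unadjusted p under 0.05, against 4.53% of all genes. Of the 29 mixed members 22 were fitted lower, with a median of −0.19 and 1 (3.45%) below that p. Of the 58 outside members 33 were fitted lower, with a median of −0.03 and 4 (6.90%) below that p. The medians of the partners were 0.02, 0.02 and 0.00 for the inside, mixed and outside groups. Without GF-ND mouse 11 the 3 medians of the members were −0.47, −0.32 and −0.02, and 15, 5 and 8 of them were lower at that p, against 10.97% of all genes. By arrangement, the 48 members in pairs with one gene within the other had a median of −0.39 and the 17 with overlapping tails −0.64, against −0.02 for the 29 head-to-head members. The difference between groups of members was described and not tested.

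Other annotated classes moved beside the members. The other 1040 genes listed as antisense with 40 or more counts had a median log2 fold change of −0.30, with 10.4% lower and 0.192% higher at an unadjusted p under 0.05. The 126 sense-intronic genes, which lie in introns on the same strand as their host, had a median of −0.42, and the 1205 gene models of the class TEC −0.47, against 0.03 for protein-coding genes. By library, the median deviation of the inside members from their own means was −0.04, −0.15, −0.11 and −0.12 in GF-HFD mice, against 0.29, 0.41, −0.31 and 0.42 in GF-ND mice. That of the sense-intronic genes was 0.07, −0.15, −0.33 and −0.12 in GF-HFD mice, against 0.38, 0.33, −0.33 and 0.50 in GF-ND mice. GF-ND mice 9, 10 and 12 were high and GF-ND mouse 11 low in both. The part of unspliced RNA in the members' levels was not tested.

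**Figure D3:**
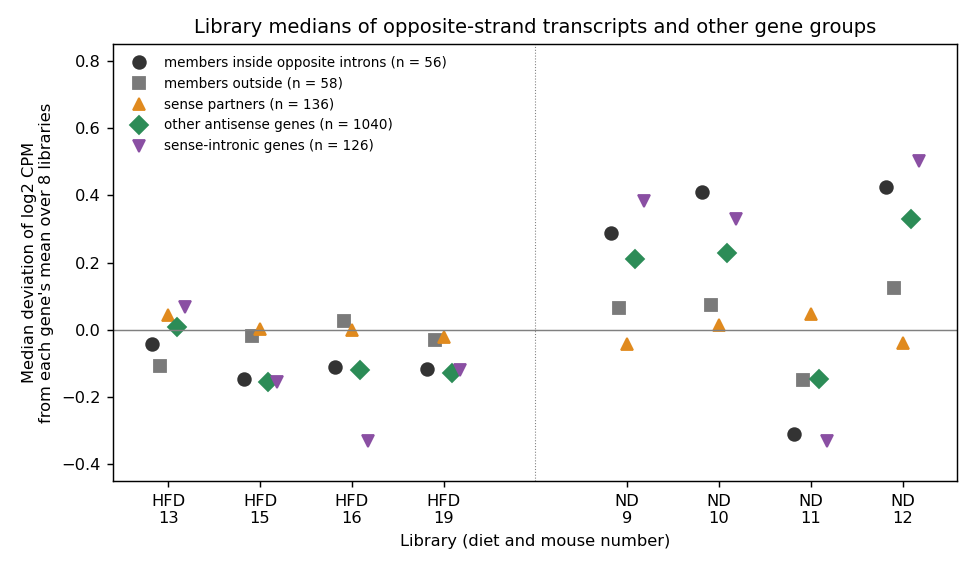
Median deviation of log2 CPM from each gene's mean over the 8 libraries (vertical) in each library (horizontal, GF-HFD mice left, GF-ND mice right), for inside and outside members, sense partners, other antisense genes and sense-intronic genes. The inside members sit at 0.29, 0.41 and 0.42 in GF-ND mice 9, 10 and 12 and at −0.31 in GF-ND mouse 11, with the GF-HFD mice between.

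Dbhos had the lowest p of the members. It lies 2529 bases before the start of Dbh, the enzyme that turns dopamine into noradrenaline, at chr2:27144898-27162703 on the minus strand, and shares no exon base with any gene. Dbhos had 115, 130, 186 and 114 counts in GF-HFD mice, against 311, 405, 169 and 301 in GF-ND mice. Only GF-ND mouse 11 lay within the GF-HFD range. The level averaged 3.20 ± 0.73 CPM in GF-HFD retinas, against 7.17 ± 2.44 CPM in GF-ND retinas. The log2 fold change was −1.17 ± 0.27 SE (unadjusted edgeR p = 0.00168, exact permutation p = 0.0571, adjusted p = 0.649), and −1.36 without GF-ND mouse 11 (adjusted p = 0.0232). Dbh itself was near silent, with 10, 10, 2 and 0 counts in GF-HFD mice, against 4, 6, 8 and 6 in GF-ND mice.

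The own exon bases of Slain1os, Grin1os, Tnk2os and Srrm4os lie over 90% in introns of their partners. Slain1os, inside the gene of a microtubule plus-end protein, had 13, 12, 15 and 6 counts in GF-HFD mice, against 34, 39, 21 and 26 in GF-ND mice. The diets did not overlap (log2 fold change −1.41 ± 0.38 SE, unadjusted edgeR p = 0.00404, exact two-sided permutation p = 0.0286, the smallest that the 70 arrangements of 4 against 4 allow). Slain1 had 515 to 659 counts in GF-HFD retinas, against 415 to 774 in GF-ND retinas (0.09 ± 0.19, and 0.31 without GF-ND mouse 11). The log2 ratio of Slain1os to Slain1 was −5.69 ± 0.43 in GF-HFD retinas and −4.15 ± 0.71 in GF-ND retinas (SD), a difference of −1.54 with no overlap.

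Grin1os lies within Grin1, the gene of the NMDA receptor subunit that every such receptor contains. It had 30, 35, 69 and 38 counts in GF-HFD mice, against 70, 101, 63 and 75 in GF-ND mice, and GF-HFD mouse 16 alone lay within the GF-ND range. The fitted log2 fold change was −0.89 ± 0.30 SE (unadjusted edgeR p = 0.0149, exact permutation p = 0.0571), beside −0.06 ± 0.15 for Grin1. Tnk2os, within the gene of a non-receptor tyrosine kinase, had 45, 27, 28 and 24 counts in GF-HFD mice, against 54, 69, 38 and 72 in GF-ND mice (−0.94 ± 0.31, unadjusted edgeR p = 0.0130, exact permutation p = 0.0571). Tnk2 stood at 149.3 ± 11.01 CPM in GF-HFD retinas and 155.3 ± 11.37 CPM in GF-ND retinas.

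Srrm4os runs into the tail of Srrm4, a splicing factor that includes the very short exons of neurons. The member had 382, 399, 295 and 346 counts in GF-HFD mice, against 674, 593, 314 and 853 in GF-ND mice, so that GF-ND mouse 11 again lay among the GF-HFD values. The fold change was −0.81 ± 0.26 SE on the log2 scale (unadjusted edgeR p = 0.0117, exact permutation p = 0.114), and −1.02 without that mouse (adjusted p = 0.0241). Srrm4 leaned the same way with a smaller difference, at 93.4 ± 11.2 CPM in GF-HFD retinas and 111 ± 13.6 CPM in GF-ND retinas (−0.25 ± 0.11, unadjusted edgeR p = 0.0520, exact permutation p = 0.114, and −0.31 without that mouse).

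Zfhx2os was the only one of the 12 whose diets and whose partner's diets both did not overlap. Zfhx2 encodes a zinc finger homeobox transcription factor of neurons. Zfhx2os had 32, 37, 34 and 23 counts in GF-HFD mice, against 40, 82, 47 and 64 in GF-ND mice (−0.92 ± 0.30 SE, unadjusted edgeR p = 0.0121, exact permutation p = 0.0286). Zfhx2 had 1788, 1642, 1775 and 1410 counts in GF-HFD mice, against 2331, 3760, 1924 and 2677 in GF-ND mice (−0.73 ± 0.19 SE, unadjusted edgeR p = 0.00307, exact permutation p = 0.0286). Every GF-HFD value of both genes was below every GF-ND value, and the ratio of member to partner overlapped between the diets (difference −0.19). The exons of the pair share 3255 bases and only 214 bases of Zfhx2os were its own.

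**Figure D4:**
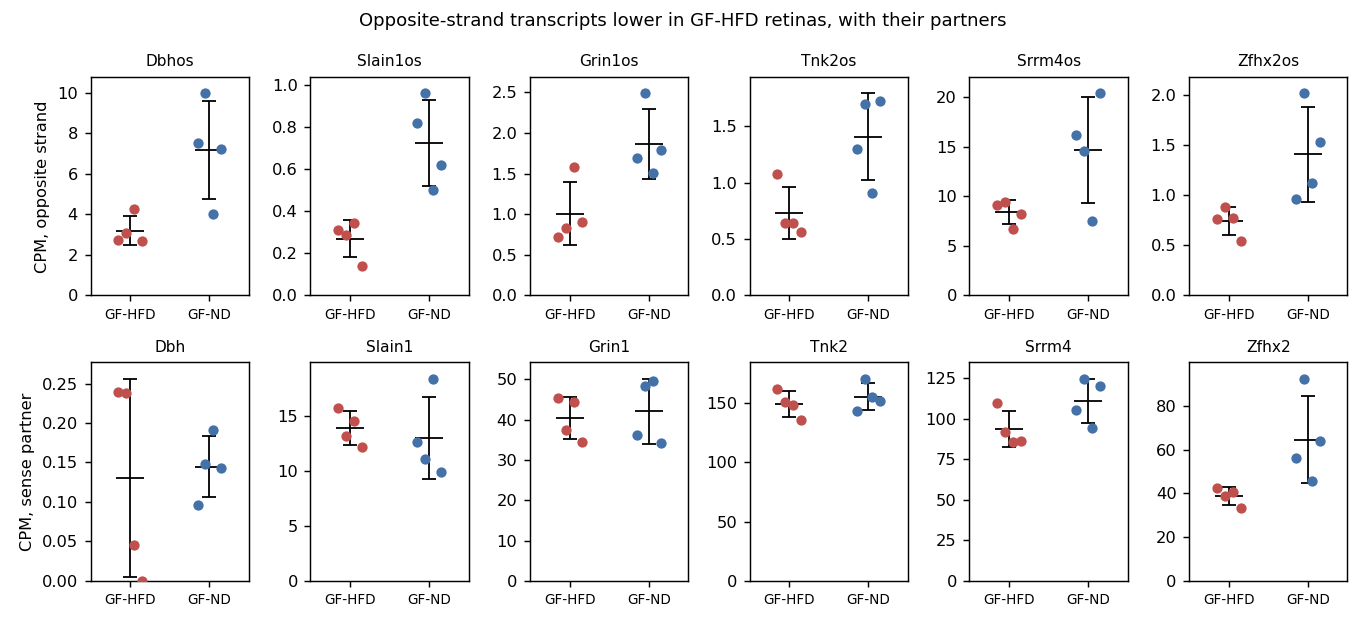
Levels in CPM of 6 opposite-strand transcripts with an unadjusted p under 0.05 (top row) and of their sense partners (bottom row) in each GF-HFD (red, left) and GF-ND (blue, right) retina, with bars for mean and SD (n = 4 each). The transcripts, chosen by that p, have lower means in GF-HFD retinas, and only Slain1os and Zfhx2os are lower without overlap. Of the partners only Zfhx2 is lower without overlap.

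The remaining lower members had smaller counts or less stable calls. Tmcc3os, which runs into the tail of Tmcc3, a gene for a membrane protein of the endoplasmic reticulum, had 5, 10, 2 and 8 counts in GF-HFD mice, against 15, 25, 23 and 15 in GF-ND mice (−1.65 ± 0.51 SE, unadjusted edgeR p = 0.00862, exact permutation p = 0.0286), and the diets did not overlap. Far1os lies within Far1, whose enzyme makes the fatty alcohols of ether lipids, and had 123, 97, 102 and 94 counts in GF-HFD mice, against 151, 204, 99 and 186 in GF-ND mice (−0.66 ± 0.25, unadjusted edgeR p = 0.0232, exact permutation p = 0.0571). Far1 was also lower (−0.25 ± 0.10, unadjusted edgeR p = 0.0298, exact permutation p = 0.0857). Without mouse 15, 16, 19, 10 or 12 its edgeR p was 0.05 or above. Mypopos lies within the gene of the transcriptional repressor Mypop and had 82, 90, 94 and 80 counts in GF-HFD mice, against 139, 177, 74 and 142 in GF-ND mice (−0.66 ± 0.26, unadjusted edgeR p = 0.0310, exact permutation p = 0.143, adjusted p = 0.0466 without GF-ND mouse 11).

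Cdiptos, a protein-coding gene that overlaps the head of the phosphatidylinositol synthase gene Cdipt, had 52, 33, 41 and 56 counts in GF-HFD mice, against 93, 80, 39 and 116 in GF-ND mice (−0.88 ± 0.34 SE, unadjusted edgeR p = 0.0268, exact permutation p = 0.114). Cdipt differed the other way, with 3456 to 3749 counts in GF-HFD mice and 2834 to 3385 in GF-ND mice and no overlap (0.15 ± 0.08, exact two-sided permutation p = 0.0286, against 2.29% of all genes higher without overlap). Phtf1os had 28, 39, 31 and 22 counts in GF-HFD mice, against 47, 52, 38 and 49 in GF-ND mice (−0.67 ± 0.27, unadjusted edgeR p = 0.0319, exact permutation p = 0.0571). Kdm6bos, within the gene of a histone H3 lysine demethylase, had 4, 7, 13 and 15 counts in GF-HFD mice, against 12, 43, 8 and 45 in GF-ND mice (−1.50 ± 0.64, unadjusted edgeR p = 0.0410, exact permutation p = 0.2). Of the 12 members, 7 (Dbhos, Slain1os, Tmcc3os, Srrm4os, Zfhx2os, Tnk2os and Grin1os) kept the call with each mouse left out in turn and in all 9 other settings, and Far1os, Cdiptos, Mypopos, Phtf1os and Kdm6bos did not, each losing the call without several of the mice other than GF-ND mouse 11.

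Crxos and Pitpnm2os2 passed only without GF-ND mouse 11. Crxos, listed as protein coding, stands head to head with Crx, the homeobox factor that drives photoreceptor genes. It had 1299, 1093, 1305 and 1058 counts in GF-HFD mice, against 1441, 1731, 624 and 1868 in GF-ND mice. GF-ND mouse 11 was below every GF-HFD mouse and the other GF-ND mice were above them, so the log2 fold change was −0.29 ± 0.28 SE with all libraries and −0.54 without that mouse (adjusted p = 0.0437). Crx had 44360 to 52478 counts in GF-HFD mice and 31681 to 47048 in GF-ND mice (0.24 ± 0.13, unadjusted edgeR p = 0.0893, exact permutation p = 0.0857). Pitpnm2os2, whose exons lie in introns of the phosphatidylinositol transfer protein gene Pitpnm2, had 3371, 2658, 3139 and 2840 counts in GF-HFD mice, against 3638, 4292, 1823 and 4412 in GF-ND mice, and again mouse 11 stood alone (−0.28 ± 0.24 with all libraries, −0.49 without that mouse, adjusted p = 0.0422). Pitpnm2 did not shift (0.00 ± 0.10).

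The 10 members beside retinal transcription factors included several of the most abundant ones, and 1 of them, Zfhx2os, was among the 12 lower members. Vax2os overlaps the head of Vax2, which specifies the ventral retina, and outnumbered it in every library. Vax2os had 8245, 6542, 6743 and 7368 counts in GF-HFD mice, against 5329, 9957, 5254 and 7725 in GF-ND mice (−0.01 ± 0.20 SE). Vax2 had 1283, 959, 866 and 1187 counts in GF-HFD mice, against 562, 899, 1127 and 598 in GF-ND mice (0.40 ± 0.23). Per kilobase of own exon bases the member stood at 37.4 CPM and its partner at 17.9 CPM over the 8 libraries.

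Six3os1 overlaps the head of Six3, an early eye field factor. It had 3227, 3347, 3557 and 3819 counts in GF-HFD mice, against 3317, 4529, 5948 and 3441 in GF-ND mice (−0.34 ± 0.17 SE, unadjusted edgeR p = 0.0721, exact permutation p = 0.2). Six3 had 4139, 2970, 4092 and 3290 counts in GF-HFD mice, against 2592, 2743, 5534 and 2550 in GF-ND mice, and both genes were highest in GF-ND mouse 11. Otx2os1 overlaps the head of Otx2, a factor of photoreceptor and bipolar cells, and had 1139, 1042, 1052 and 1080 counts in GF-HFD mice, against 1292, 1205, 835 and 1307 in GF-ND mice (−0.14 ± 0.14). Otx2 varied little, with 202 ± 11.4 CPM in GF-HFD retinas and 193 ± 6.76 CPM in GF-ND retinas.

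Prox1os and Prox1, a factor of horizontal cells and of the lens, stood apart in GF-ND mouse 11. Prox1os had 117, 167, 140 and 233 counts in GF-HFD mice, against 122, 131, 839 and 136 in GF-ND mice, and Prox1 10277, 9037, 10041 and 10300 against 8758, 9319, 16367 and 8919. The retina with the most lens transcripts was the highest for both. Sox5os2 and Dmrta2os, whose fold changes of −3.07 and −1.76 were the lowest of all members, had 136 and 167 counts in that library and no more than 15 and 46 counts in any GF-HFD retina or 8 and 12 in any other GF-ND retina, and were chosen for mention after their values were seen. The part of lens RNA in these values was not tested.

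Pax6os1, Raxos1, Lhx1os and Tbx3os1 completed the group. Pax6 is the master factor of eye development and Rax acts in the eye field and in photoreceptors. Pax6os1 had 215 to 295 counts in GF-HFD mice and 190 to 247 in GF-ND mice (0.17 ± 0.16 SE), and Raxos1 153 to 243 and 132 to 229 (0.03 ± 0.22). Lhx1os, which starts 125 bases from the horizontal cell factor Lhx1, had 42 to 102 and 48 to 76 counts (0.22 ± 0.30). Tbx3os1, beside the dorsal retina factor Tbx3, had 19, 17, 37 and 35 counts in GF-HFD mice, against 45, 73, 32 and 35 in GF-ND mice (−0.82 ± 0.38, unadjusted edgeR p = 0.0566, exact permutation p = 0.143). Over the wider list of 45 tested retinal transcription factors, 31 were fitted higher and 14 lower, with 2 higher and 1 (Zfhx2) lower at an unadjusted p under 0.05, against 2.85% and 4.53% of all genes. Without GF-ND mouse 11 the list had 18 higher and 1 lower at that p, against 12.07% of all genes higher and 10.97% lower.

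**Figure D5:**
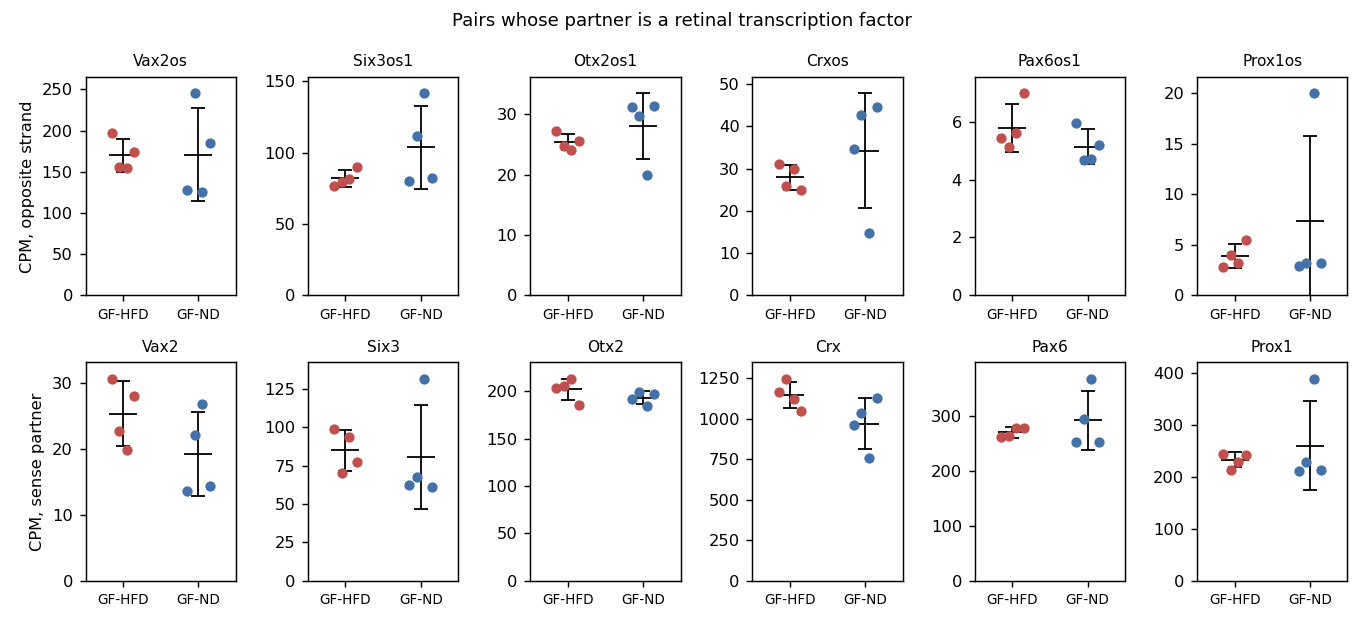
Levels in CPM of 6 opposite-strand transcripts (top row) and the retinal transcription factors they lie beside (bottom row) in each GF-HFD (red, left) and GF-ND (blue, right) retina, with bars for mean and SD (n = 4 each). The diets overlap in every panel, and the highest GF-ND points of Vax2, Six3os1, Six3, Pax6, Prox1os and Prox1 are those of mouse 11.

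Among the 136 partners, 3 (2.21%) were higher at an unadjusted p under 0.05, no larger a share than the 2.85% of all genes. Hk1, the hexokinase that starts glycolysis in neurons, averaged 977 ± 124 CPM in GF-HFD retinas and 792 ± 124 CPM in GF-ND retinas (0.30 ± 0.14 SE, unadjusted edgeR p = 0.0490, exact permutation p = 0.0857). Rptor, the scaffold of the growth kinase complex mTORC1, averaged 101 ± 2.42 CPM in GF-HFD retinas and 89.4 ± 5.47 CPM in GF-ND retinas with no overlap (0.17 ± 0.07, unadjusted edgeR p = 0.0377, exact permutation p = 0.0286), and Tmem147 34.8 ± 2.81 and 29.2 ± 2.99 CPM (0.25 ± 0.10, unadjusted edgeR p = 0.0313, exact permutation p = 0.0571). All 3 lost this p under library totals without scaling factors, and Hk1 and Rptor did so in 5 of the 9 other settings. With 1 of the 8 mice left out in turn, Hk1 lost it in 6 fits and Rptor and Tmem147 in 5 each. Of the 8 partners called in either direction, only Zfhx2 and Cpeb1 kept an unadjusted p under 0.05 throughout. Cpeb1, which lengthens the tails of stored messenger RNAs, was lower at 14.8 ± 2.08 CPM in GF-HFD retinas against 23.3 ± 7.47 CPM in GF-ND retinas (−0.66 ± 0.21, unadjusted edgeR p = 0.0107, exact permutation p = 0.0857, and −0.44 without GF-ND mouse 11), and so was the cold-induced RNA-binding protein gene Rbm3 at 71.7 ± 5.06 CPM against 88.8 ± 12.8 CPM (−0.31 ± 0.11, unadjusted edgeR p = 0.0184, exact permutation p = 0.0571). The members beside them, Cpeb1os1 (0.16 ± 0.37) and Rbm3os (−0.46 ± 0.46), had at most 65 and 27 counts in any library. Rptoros had 12, 1, 7 and 3 counts in GF-HFD mice, against 9, 0, 3 and 14 in GF-ND mice.

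The ratio of member to partner within a library does not depend on library scaling. Its log2 value was lower in GF-HFD in 99 of 145 pairs, with a median difference of −0.18, and was apart between the diets in 5 pairs on the lower side (Slain1os, Tmcc3os, Kcnd3os, Hk1os and Tmem147os) and 2 on the higher (Mettl5os and Fzd10os). Hk1os was apart only through the 0.5 counts added to both genes. Over 1309 other pairs of an annotated antisense gene and the gene on the other strand, 4.43% were apart on the lower side and 0.229% on the higher, with a median of −0.28. All of these other pairs overlapped in their gene bodies, as 108 of the members' pairs did, and 1 gene could enter several. Fzd10os and Mettl5os do not overlap their partners. Among the members the median difference was −0.29 for inside, −0.17 for mixed and −0.11 for outside ones. Without GF-ND mouse 11, 32 of the members' pairs were apart on the lower side and 3 on the higher, against 17.9% and 1.53% of the other antisense pairs.

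Hk1os, within the body of Hk1, had 38, 34, 45 and 46 counts in GF-HFD mice, against 41, 69, 47 and 66 in GF-ND mice. Its log2 ratio to Hk1 was −9.98 ± 0.36 in GF-HFD retinas and −9.21 ± 0.31 in GF-ND retinas (SD), a difference of −0.77. The diets all but touched, at −9.61904 in GF-HFD mouse 19 and −9.61876 in GF-ND mouse 9. On the plain counts, without the 0.5 added to both genes, these mice change order and the diets overlap. Kcnd3os overlaps the head of Kcnd3, a potassium channel gene, and had 16, 15, 19 and 10 counts in GF-HFD mice, against 30, 30, 21 and 18 in GF-ND mice, with a ratio difference of −0.79. Tmem147os had 246, 257, 301 and 221 counts in GF-HFD mice, against 314, 313, 287 and 317 in GF-ND mice, with a ratio difference of −0.56.

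Fzd10os and Mettl5os start 151 and 113 bases from their partners, the Wnt receptor gene Fzd10 and the ribosomal RNA methyltransferase gene Mettl5. Fzd10os had 95, 104, 98 and 65 counts in GF-HFD mice, against 79, 41, 39 and 70 in GF-ND mice, beside 507, 518, 513 and 388 counts of Fzd10 in GF-HFD mice, against 492, 316, 316 and 454 in GF-ND mice. The ratio was 0.40 higher in GF-HFD. For Mettl5os, with 41, 39, 62 and 46 counts in GF-HFD mice, against 44, 35, 23 and 45 in GF-ND mice, it was 0.36 higher. All 7 ratios apart had an exact two-sided permutation p of 0.0286, the smallest possible, before any adjustment for 145 pairs.

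Across the 8 mice, most members did not follow their partners. The correlation of log2 CPM was positive in 79 of 145 pairs, with a median Pearson r of 0.08, and 0.13 after the diet means were removed. At an unadjusted exact permutation p under 0.05 there were 20 pairs (13.8%), 13 of them positive. After Benjamini-Hochberg adjustment over the 145 pairs there were 5 by Pearson's r and 2 by Spearman's rho. Correlations were not computed for other gene pairs, so these counts have no background share beside them. Whether such ties are particular to opposite-strand pairs was not tested.

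Dio3os and Dio3 were the pair most closely tied. Dio3 encodes the deiodinase that inactivates thyroid hormone and lies at the end of an imprinted cluster, and Dio3os starts 896 bases away and runs the other way. Dio3os had 32, 151, 219 and 263 counts in GF-HFD mice, against 78, 129, 83 and 55 in GF-ND mice, and Dio3 10, 118, 182 and 216 against 40, 74, 66 and 26. The order of the 8 mice was the same for both genes (r = 0.99, exact permutation p = 2.48e-05, adjusted p = 0.0036, and rho = 1, exact permutation p = 4.96e-05, adjusted p = 0.00719, both the smallest that the test can give). Leaving out mice 13 and 19, farthest from the median of Dio3, r was 0.97. The diets overlapped widely because GF-HFD mouse 13 was the lowest of all and the other GF-HFD mice were the highest. By mean log2 CPM, markers of fibroblasts and of the ciliary body and iris, too, were lowest in mouse 13 and highest in mice 16 and 19. Those of the pigment epithelium were lowest in mouse 13 and highest in GF-ND mouse 11. The fibroblast mean was −0.85, 0.87, 3.80 and 4.15 in GF-HFD mice, against −0.39, 0.93, 1.80 and −0.80 in GF-ND mice. By share of counts, fibroblast markers were lowest in GF-ND mouse 12. The part of such cells in the tie of Dio3os and Dio3 was not tested.

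Fzd10os and Fzd10 were tied almost as closely (r = 0.97, exact permutation p = 9.92e-05, adjusted p = 0.00719, rho = 0.98, exact permutation p = 0.000397, adjusted p = 0.0288), with r = 0.87 without mice 11 and 10. Both were lowest in mice 11, 10 and 19, the mice in which lens markers took the most counts. The part of lens RNA in this tie was not tested. Zfhx2os followed Zfhx2 (r = 0.94, exact permutation p = 0.000769, adjusted p = 0.0279, rho = 0.88, exact permutation p = 0.00724, adjusted p = 0.175), with r = 0.76 without mice 10 and 12 and 0.84 within the diets. Tnfsf13os followed Tnfsf13, the gene of a B-cell survival cytokine (r = 0.91, exact permutation p = 0.00129, adjusted p = 0.0374, rho = 0.88, exact permutation p = 0.00724, adjusted p = 0.175), with r = 0.90 without mice 11 and 12. Chn1os3 ran against Chn1, a gene for a Rac-inactivating protein of neurons, with 36, 23, 52 and 31 counts in GF-HFD mice, against 47, 115, 23 and 48 in GF-ND mice (r = −0.97, exact permutation p = 0.000248, adjusted p = 0.012, rho = −0.95, exact permutation p = 0.00114, adjusted p = 0.0551), and r was −0.95 without mice 10 and 11. Tnfsf13os and Chn1os3 were named after their values were seen.

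For Prox1os and Prox1 an r of 0.93 (exact permutation p = 0.0423, adjusted p = 0.339, with rho = 0.29, exact permutation p = 0.501, adjusted p = 0.807) came to 0.12 without mice 11 and 9, so it rested on those mice. Vax2os and Vax2 had an r of 0.21 (exact permutation p = 0.615, adjusted p = 0.801) and a rho of 0.24 (exact permutation p = 0.582, adjusted p = 0.812), and r was −0.01 without mice 9 and 12.

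Named antisense RNAs outside the rule gave a reference. Of 9 such genes found by name, 7 were tested, 5 were fitted lower and 3 were lower at an unadjusted p under 0.05, against 4.53% of all genes. Snhg14, the long host transcript that silences Ube3a in neurons, had 2751, 2570, 2632 and 2419 counts in GF-HFD mice, against 3486, 4140, 3439 and 3668 in GF-ND mice (−0.54 ± 0.09 SE, unadjusted edgeR p = 0.000111, exact permutation p = 0.0286), with no overlap. Airn, the imprinted antisense transcript of Igf2r, had 314, 238, 297 and 264 counts in GF-HFD mice, against 353, 393, 324 and 518 in GF-ND mice (−0.55 ± 0.17, unadjusted edgeR p = 0.0106, exact permutation p = 0.0286). Kcnq1ot1, which silences its imprinted cluster in cis, had 3373, 2713, 1876 and 2375 counts in GF-HFD mice, against 3643, 3453, 2444 and 4436 in GF-ND mice (−0.47 ± 0.21, unadjusted edgeR p = 0.0499, exact permutation p = 0.143). Peg13, the imprinted antisense transcript within Trappc9, differed the other way, with 15443, 17242, 15797 and 15110 counts in GF-HFD mice, against 14127, 13932, 13514 and 13545 in GF-ND mice and no overlap (0.17 ± 0.08, unadjusted edgeR p = 0.0562, exact permutation p = 0.0286).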

How the data were processed

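Retinas of 8 germ-free mice, 4 on each diet, were compared. The authors aligned the reads to GRCm38 with STAR 2.4.2 and deposited whole-number counts per gene from featureCounts (Subread 1.4.6-p1), with no normalization. Positions came from GENCODE vM21 (GRCm38), and start regions from RefSeq (GRCm38.p6), matched by symbol or synonym. The paper names Gencode vM23 for its gene annotation. The own exon bases and intron groups given here may therefore differ slightly from the regions counted. Genes with 10 or more counts over the libraries were fitted with edgeR 4.0.16 (TMM, quasi-likelihood, R 4.3.3), diet being the only term, with Benjamini-Hochberg adjustment over all genes. Single members and log2 ratios (0.5 counts added to both) were tested by an exact two-sided permutation test over 70 arrangements, whose smallest p is 0.0286. Log2 CPM used a prior count of 2. DESeq2 1.42.0, limma 3.58.1, other scalings, other filters and pseudocounts and leaving out mice were alternatives. Scripts were tested on simulated data.

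Named with values were the 12 most abundant members, those with an unadjusted p under 0.05 in the member or partner, pairs with ratios apart, members above their partner in every library, pairs of retinal transcription factors and the 3 on each side of the threshold. The members, lists and tests were chosen with earlier results of these data known. No source states separate cages or litters, so p-values measure the spread between these mice. Per-library counts carry counting error, which is large for members under about 10 counts. Low counts of members were mostly even (169 even against 92 odd values from 1 to 12). Whether both reads of a pair were counted was not tested. If they were, all counts, not only the low ones, hold fewer independent fragments than their size.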

Additional observations from a re-analysis of the deposited data

Results flagged for a closer look

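Among 92 named genes in 2 diet groups of 4, that is 184 groups, 10 held a value farther from the rest than Dixon's 95% limit allows, while chance flags about 1 in 20 groups. GF-ND mouse 11, the retina with the most lens transcripts, held 7 of them. In that mouse Prox1os had 839 counts (122 to 136 in the other GF-ND mice), Prox1 16367 (8758 to 9319), Six3 5534 (2550 to 2743), Tbx3 684 (446 to 468) and Tmcc3 2781 (1591 to 1714), all high. Low in the same mouse were Otx2os1 with 835 counts (1205 to 1307) and Tmem147os with 287 counts (313 to 317). The others were Rab10os with 2113 counts in GF-HFD mouse 16 (1525 to 1598), Fzd10 with 388 counts in GF-HFD mouse 19 (507 to 518) and Cdipt with 2834 counts in GF-ND mouse 12 (3192 to 3385).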

How the results depend on the processing

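No paired analysis was possible because the mouse numbers of the 2 diets are not shared. The members' median log2 fold change stayed below 0 in all settings, at −0.30 to −0.13 with 1 mouse left out. The number of members at an unadjusted p under 0.05 was 1 higher by DESeq2 and by limma-voom and 4 higher and 23 lower without GF-ND mouse 11 and GF-HFD mouse 19 together, and it ranged from 0 to 3 higher and from 8 to 29 lower with 1 mouse left out. The 3 (2.07%) and 29 (20%) were without GF-ND mouse 11, where 12.07% of all genes were higher and 10.97% lower. The 29 held all 12 called with all 8 libraries. For partners it was 1 higher with RLE size factors, with upper-quartile factors and with no filter, 0 higher with library totals and 19 without both mice, and it was 8 lower with library totals, 9 with no filter and by DESeq2, and 14 without both mice. With 1 mouse left out it ranged from 0 to 23 higher and from 3 to 15 lower. The 23 (16.91%) and 15 (11.03%) were without GF-ND mouse 11, where 12.07% of all genes were higher and 10.97% lower. The partners' median was −0.031 with library totals and 0.083 without both mice, and −0.0082 to 0.070 with 1 left out, so its sign was not stable. Ratios apart numbered 5 higher and 37 lower without both mice, and 2 to 5 higher and 5 to 32 lower with 1 left out. The shares of all genes and of other antisense pairs were not computed without both mice. The counts of members, partners and ratios in that setting therefore have no background beside them. Tmcc3 reversed to 0.21 without GF-ND mouse 11, where the high value of that mouse was removed, and ranged from −0.088 to 0.21 with 1 left out. The cause of the other shifts was not tested. Members with few counts have wide errors, and a difference that missed the threshold there was not detectable at this depth.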
